A study of Mus musculus with 7 samples.

Results

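The carboxylesterase family of the mouse duodenum is described here by 9 genes, Ces1d, Ces1e, Ces1f and Ces1g of the Ces1 group and Ces2a, Ces2b, Ces2c, Ces2e and Ces2g of the Ces2 group. They are 9 of the 14795 genes listed for these samples, found by their symbols, and none of the listed symbols was absent. The family was chosen by the CPM values of Ces1f, which had been seen lower in the knockout duodena of these same mice, so the genotype difference of Ces1f is the reason for its choice and is given below as a description without a test. Duodenal RNA came from 3 Ppara lox/lox mice and from 4 Ppara I-KO mice, all male and, by the methods of the study, on high-fat diet (HFD) for 8 weeks. The 3 controls carried the floxed Ppara allele (Ppar-alpha loxP/loxP) without Cre, and the 4 Ppara I-KO mice carried the same allele with Villin-Cre, which is active in the intestinal epithelium from before birth, so other cells of the duodenum kept Ppara. The strain label of both groups is C57BL/6, and their ages were not given in the sources used here. By the labels, mice of both groups had no food for 6 h and were then fed again for 6 h before the tissue was taken, while the methods give only a general fast before killing. No Cre-positive mice without a floxed allele were part of this comparison, so the transgene and the loss of Ppara cannot be told apart. The comparison asks how the transcripts of the duodenum differ when the epithelium lacks Ppara.

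Carboxylesterases are enzymes of the endoplasmic reticulum that cleave ester bonds. Their substrates are triglycerides, diacylglycerols, cholesteryl esters and retinyl esters as well as many drugs and other foreign compounds, and they are abundant in liver and in enterocytes, the absorptive cells of the gut. Ces1 genes are related to human CES1, the main form of liver, and Ces2 genes to human CES2, the main form of small intestine. PPARα, the protein made from Ppara, is a nuclear receptor activated by fatty acids that induces genes of fatty acid oxidation and lipid handling in liver and gut.

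The 9 genes lie in 2 arrays on chromosome 8 of the GRCm38 assembly (mm10), by the GENCODE annotation. The 4 Ces1 members are on the minus strand in an array of 8 annotated Ces1 genes from 93020214 to 93379725, and the 5 Ces2 members are on the plus strand in an array of 8 annotated Ces2 genes from 104734003 to 105021178. The arrays span 359.51 kb and 287.18 kb and are 11.35 Mb apart. Ces1f runs from 93256236 to 93279747 in the middle of its array, between Ces1e and Ces1g, and Ces2e from 104926260 to 104934672. The coding sequences are shown first because they tell how close the members are to each other, and thus how well short reads can separate them. Each stretch below is 33 coding bases around the codon of the active-site serine, written in capitals, which is codon 221 in Ces1d, Ces1f and Ces1g and lies between codons 221 and 230 in all 9. No stretch contains an intron, and positions are of GRCm38.
Ces1d, chr8:93187752-93187784, minus strand: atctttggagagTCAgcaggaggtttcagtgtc
Ces1e, chr8:93217508-93217540, minus strand: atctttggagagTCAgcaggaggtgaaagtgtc
Ces1f, chr8:93269983-93270015, minus strand: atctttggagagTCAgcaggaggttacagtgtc
Ces1g, chr8:93328387-93328419, minus strand: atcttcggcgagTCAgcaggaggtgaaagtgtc
Ces2a, chr8:104737404-104737436, plus strand: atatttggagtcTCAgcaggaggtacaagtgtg
Ces2b, chr8:104834936-104834968, plus strand: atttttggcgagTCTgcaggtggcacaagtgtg
Ces2c, chr8:104850762-104850794, plus strand: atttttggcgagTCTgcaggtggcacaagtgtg
Ces2e, chr8:104929809-104929841, plus strand: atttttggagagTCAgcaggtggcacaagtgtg
Ces2g, chr8:104964987-104965019, plus strand: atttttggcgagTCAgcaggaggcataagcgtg
In these stretches the 4 Ces1 members resemble each other. Ces2b and Ces2c are the same, while Ces2a stands apart from the other Ces2 members and differs from all others in the codon before the serine. Over the whole coding sequence, Ces1 pairs were between 74.6% and 81.6% identical (6 pairs) and Ces2 pairs between 81.6% and 92.1% (10 pairs), against 62.2% to 65.4% for a Ces1 with a Ces2 member (20 pairs). The most alike pair was Ces2b and Ces2c. The coding sequences also end alike. The last 4 codons before the stop, in capitals in the 27-base ends of Ces1f and Ces2e below, encode in all 9 members a tail signal of the kind that returns proteins to the endoplasmic reticulum.
Ces1f, chr8:93256429-93256455, minus strand: ccccagccatacCACAATGAGCTGtga
Ces2e, chr8:104933688-104933714, plus strand: tctcaggagaggCACAAAGAGTTGtag
Of the 100-base windows of the longest transcript, the length of the reads, 0 were identical to a window of another carboxylesterase gene for 8 of the 9 members. Ces2c was the exception, with 294 of 1871 windows (15.7%) identical in Ces2d-ps, a pseudogene of the same array, and 618 windows within 2 mismatches of another gene of the family. Ces2b had 130 of 3309 windows (3.93%) within 2 mismatches of another gene of the family, most often Ces2c, which had far more reads. How reads with several matches were counted is not given in the sources used here. The levels of Ces2c, Ces2d-ps and the low Ces2b are therefore less certain than the others.

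Values are CPM, the reads of a gene scaled to an adjusted library size. By estimate from the steps of the low values, listed genes held about 20744162 to 25866656 reads per library. The value of 1 read was about 0.0393 to 0.0530 CPM. At the levels of most members, the spread between mice and not counting therefore sets the precision. Each library was 1 biological replicate by the labels. In whole duodenum, fewer cells of a type and less RNA per cell cannot be told apart. The enterocyte markers Alpi, Sis, Lct, Vil1 and Fabp1 had between 1292 and 4228 CPM in all 7 libraries, while Alb, the main secreted protein of hepatocytes, reached 0.62 CPM at most, although the liver is a rich source of Ces1 transcripts. Ppara itself had 53.4, 49.3 and 63.2 CPM in lox/lox 1 to 3 and 33.1, 40.6, 47.5 and 69.9 CPM in I-KO 1 to 4. The library labelled I-KO 4 was therefore above every lox/lox library, against its label, although a total over the gene does not separate the deleted part from the rest. Fold changes that turn with I-KO 4 are given with and without it. The 19 listed genes of a list of PPARα targets summed to 4786 CPM in I-KO 4, against 4718 to 5785 CPM in I-KO 1 to 3 and 6255 to 7442 CPM in lox/lox. The list was chosen with earlier results of these data known, and a sum follows its most abundant genes, so this is no check of the label. Of the hepatocyte list, 6 of 10 genes were listed and summed to 530 to 571 CPM in lox/lox and 427 to 861 CPM in I-KO, with 422 to 852 CPM of this from Cps1, which enterocytes also express. I-KO 4 had the highest sum and the most Alb, Serpina1c, Ttr, Cps1 and Apoh (0.62, 1.49, 3.31, 852 and 0.70 CPM). Cyp2e1 was highest in lox/lox 2 (3.39 CPM). The part of hepatocyte transcripts in the carboxylesterase values was not tested. Of the pancreatic acinar list, 13 of 15 genes were listed and summed to 427 CPM in I-KO 1 and 101 CPM in lox/lox 2, against 29.9 to 48.5 CPM in the other 5. Slc40a1 and Cybrd1, iron transport genes of the proximal duodenum, were at 49.3 and 16.9 CPM in lox/lox 3, against 103 to 162 and 56.1 to 78.5 CPM in the other 6. These genes were picked after their values were seen. From the same list of regional markers, Pdx1 and Gata4 were also lowest in lox/lox 3, while Onecut2, Sct and Gip were not. Gip had 96.7 CPM in lox/lox 3, and only I-KO 1 was higher. A regional difference of lox/lox 3 was not tested.

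Ces2e was the most abundant member. Per kilobase of exon, it averaged 497 CPM per kb over the 7 libraries (SD 32.0), followed by Ces2a with 130.4 (SD 34.7) and Ces2c with 117 (SD 12.1). Ces1d and Ces1f came next with 42.0 (SD 12.7) and 41.5 (SD 11.5) CPM per kb, then Ces2g with 22.2 (SD 4.40). Ces1g and Ces1e had 8.74 (SD 3.81) and 8.64 (SD 1.82) CPM per kb, and Ces2b was lowest with 0.96 (SD 0.37). Neighbours in this order did not differ beyond their spread (mean ± SD over the 7 libraries overlapped) for Ces2a and Ces2c, for Ces1d and Ces1f, and for Ces1g and Ces1e. With the longest transcript as the length instead of all exons, Ces1f had 70.8, Ces2c 137 and Ces2g 27.8 CPM per kb, and Ces1f was above Ces1d, which had 49.7.

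The Ces2 group made up most of the family in every mouse. Of the summed CPM per kb of the 9 members, Ces2e alone took between 51.4% (I-KO 4) and 63.1% (I-KO 1). Ces2a took 12.9% to 15.1% in 6 libraries and 20.5% in I-KO 4. The share of Ces1f was 4.99%, 6.15% and 6.13% in lox/lox 1 to 3 and 4.07%, 3.40%, 3.89% and 4.54% in I-KO 1 to 4, so that every I-KO share was below every lox/lox share, a value that rests on the same difference for which Ces1f was chosen. The sum over all 9 members was 878 ± 75.3 CPM per kb (n = 3, SD) in lox/lox and 861 ± 98.1 CPM per kb (n = 4, SD) in I-KO, a difference smaller than either SD. The 5 Ces2 members summed to 764 ± 52.1 and 770.2 ± 73.1 CPM per kb, and the 4 Ces1 members to 114 ± 29.6 and 91.1 ± 25.7 CPM per kb.

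**Figure D1:**
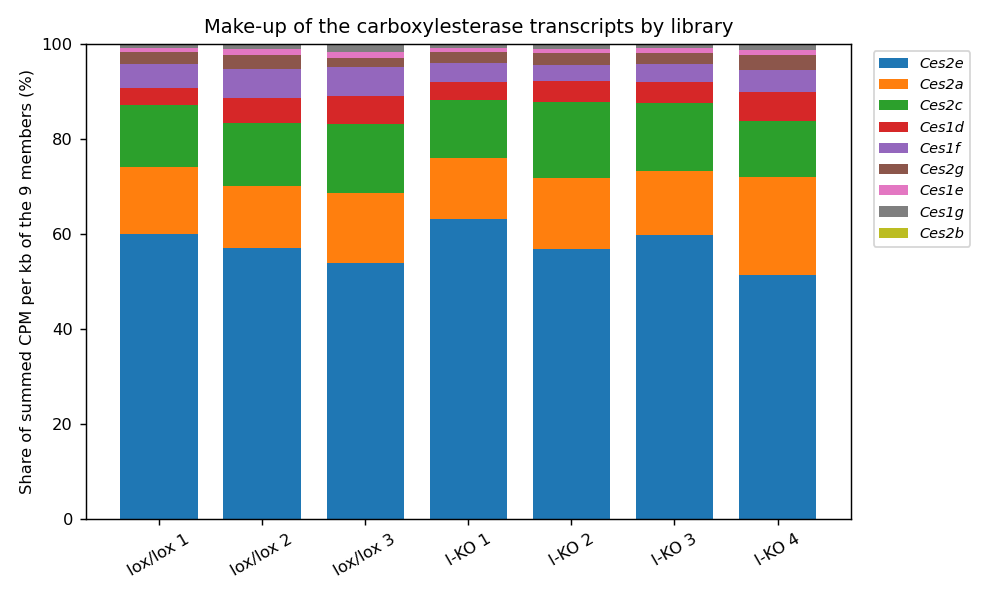
Stacked columns give the share (%) of each of the 9 members in their summed CPM per kb of exon, for 3 lox/lox and 4 I-KO libraries. Ces2e takes 51.4% to 63.1% of each column, and the Ces2a segment is larger in I-KO 4 (20.5%) than in the other 6.

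Ces1f, which encodes an enzyme able to cleave triglycerides, had 137, 169 and 195 CPM in lox/lox 1 to 3 and 111, 85.3, 109.7 and 149 CPM in I-KO 1 to 4. I-KO 1, 2 and 3 were lower than all of the lox/lox libraries, and I-KO 4 lay between lox/lox 1 and lox/lox 2, so the groups overlapped by this 1 library. The means were 167 ± 29.0 CPM (n = 3, SD) and 114 ± 26.1 CPM (n = 4, SD), the I-KO mean being 68.1% of the lox/lox mean. On the log2(CPM + 1) scale the difference was -0.56 (standard error 0.18), and with 1 library left out at a time it ranged from -0.70 without I-KO 4 to -0.44 without I-KO 2. The median over all 13399 genes tested was 0.0017. This is the difference that chose the family, and no p is given for it. The choice of the family used no threshold.

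The other 3 Ces1 members did not separate the groups. Ces1d, a triglyceride hydrolase that in liver helps to mobilise stored fat for lipoprotein assembly, had 70.8, 106 and 137 CPM in lox/lox 1 to 3 and 73.8, 77.7, 89.0 and 143 CPM in I-KO 1 to 4. Its values ran from low to high within both groups, and its log2 fold change was -0.12 (95% interval -0.73 to 0.48, limma adjusted p = 0.977), turning to 0.096 without lox/lox 3. Ces1e, also known as egasyn, which holds β-glucuronidase in the endoplasmic reticulum, had 14.8, 22.7 and 23.5 CPM in lox/lox 1 to 3 and 16.0, 15.7, 16.5 and 23.2 CPM in I-KO 1 to 4. I-KO 4 stood with the 2 higher lox/lox libraries and lox/lox 1 with the 3 lower I-KO libraries. The log2 fold change of Ces1e was -0.17 (95% interval -0.59 to 0.25, limma adjusted p = 0.955). Ces1g, whose product has been linked to lipid secretion by liver and gut, varied most of the Ces1 members. It had 13.9, 19.9 and 37.1 CPM in lox/lox 1 to 3 and 14.0, 14.0, 17.5 and 29.6 CPM in I-KO 1 to 4, a coefficient of variation of 43.6% over the 7 libraries. Its log2 fold change was -0.27 (95% interval -1.03 to 0.49, limma adjusted p = 0.963), and 0.10 without lox/lox 3. The intervals of all 3 contain 0. The ratio of Ces1f to each other member was also taken within each library. Ces1f over Ces1e was between 7.44 and 9.23 in lox/lox and between 5.43 and 6.90 in I-KO, without overlap. The ratios of Ces1f to Ces2a (0.49 to 0.66 in lox/lox, 0.31 to 0.44 in I-KO) and to Ces2g (1.71 to 2.93 and 1.21 to 1.61) were also all lower in I-KO, while those to Ces1d, Ces1g, Ces2b, Ces2c and Ces2e overlapped. These ratios contain the value that chose the family and carry no test.

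**Figure D2:**
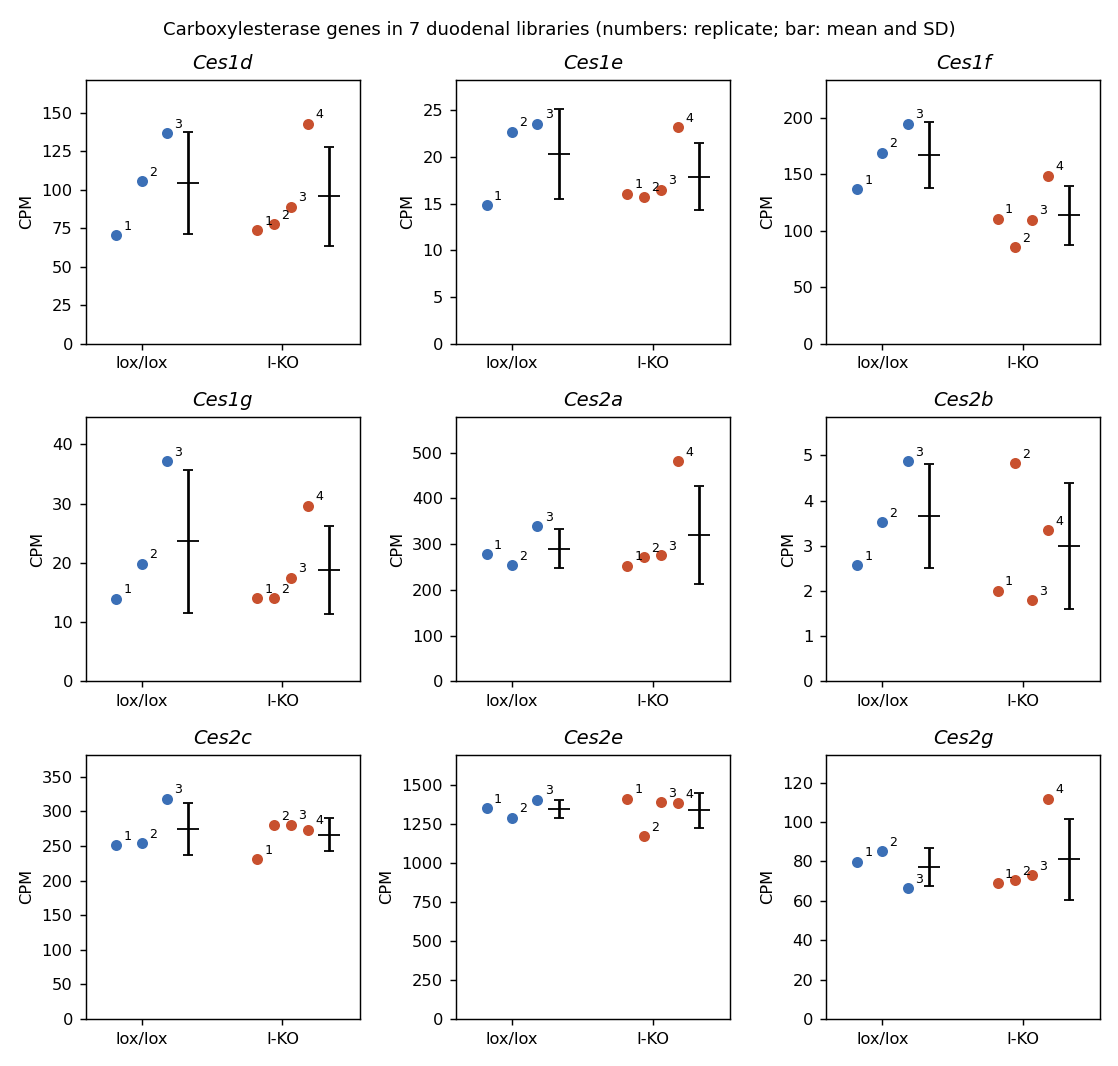
Each panel plots the CPM of 1 member in the 3 lox/lox (blue) and 4 I-KO (orange) libraries, numbered by replicate, with the mean and SD of each group in black and the axis starting at 0. For Ces1f the libraries I-KO 1, 2 and 3 are below the 3 lox/lox libraries, and for the other 8 genes the groups overlap more widely.

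The Ces2 members did not separate the groups either, and for each of the 5 the difference of the means was smaller than the SD of either group. Ces2e, a carboxylesterase of the small intestine, had 1349.8, 1288 and 1403 CPM in lox/lox 1 to 3 and 1409, 1168, 1386 and 1381 CPM in I-KO 1 to 4. It was the steadiest member, with a coefficient of variation of 6.44% over the 7 libraries, and only I-KO 2 lay below the lox/lox range. The means were 1347 ± 57.7 CPM (n = 3, SD) and 1336 ± 112 CPM (n = 4, SD). The log2 fold change was -0.014 (95% interval -0.22 to 0.19, limma adjusted p = 0.996) and was 0.015 without lox/lox 3 and 0.049 without I-KO 2. Ces2c, which cleaves triglycerides and diacylglycerols in enterocytes, had 252, 254 and 318 CPM in lox/lox 1 to 3 and 231, 279.9, 281 and 273 CPM in I-KO 1 to 4. Its log2 fold change was -0.040 (95% interval -0.30 to 0.22, limma adjusted p = 0.982), and turned to 0.070 without lox/lox 3 and to 0.026 without I-KO 1. I-KO 1 was the lowest library and lox/lox 3 the highest, with the other 5 between 252 and 281 CPM. Ces2a, a diacylglycerol hydrolase of liver and gut, had 278, 255 and 339 CPM in lox/lox 1 to 3 and 253, 272, 276 and 481 CPM in I-KO 1 to 4. I-KO 4 stood far above the other 6, and without it the log2 fold change of 0.099 (95% interval -0.39 to 0.59, limma adjusted p = 0.977) became -0.11. Ces2g had 79.8, 85.2 and 66.3 CPM in lox/lox 1 to 3 and 68.8, 70.4, 73.0 and 112 CPM in I-KO 1 to 4. I-KO 4 was again the highest, and the log2 fold change of 0.048 (95% interval -0.35 to 0.44, limma adjusted p = 0.987) became -0.12 without it and -0.055 without lox/lox 3. Ces2b was the least abundant member, with 2.57, 3.52 and 4.87 CPM in lox/lox 1 to 3 and 2.01, 4.83, 1.8 and 3.35 CPM in I-KO 1 to 4. Its libraries were mixed between the groups, and its log2 fold change was -0.25 (95% interval -0.85 to 0.34, limma adjusted p = 0.954).

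**Figure D3:**
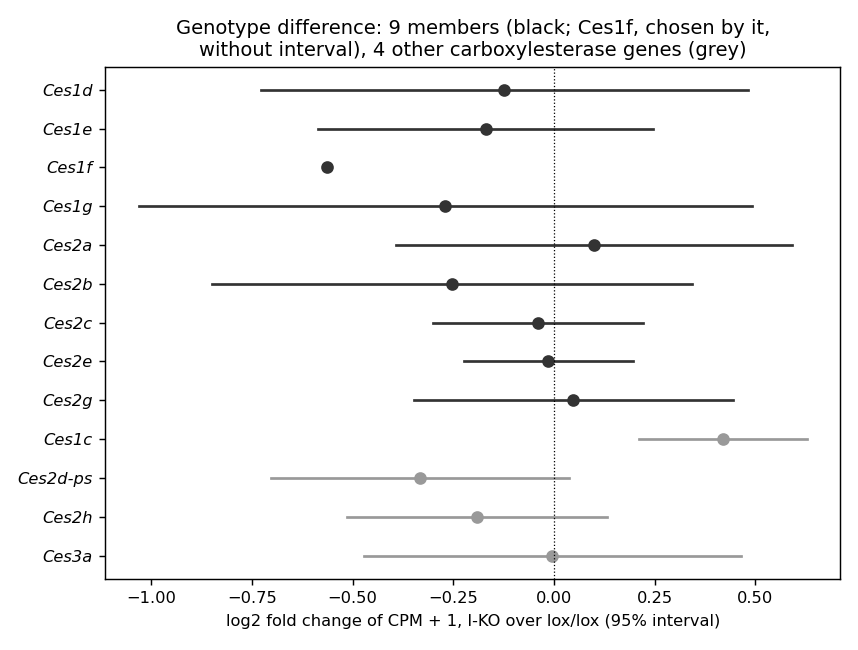
Points give the log2 fold change of CPM + 1 (I-KO over lox/lox) and lines its 95% interval from limma for the 9 members (black) and 4 other carboxylesterase genes (grey). Ces1f, the gene chosen for this difference, is a point without an interval, the intervals of the other 8 members cross 0, and that of Ces1c runs from 0.21 to 0.63. Ces1c passed the filter only through the I-KO libraries, where it was high.

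All 9 members passed the filter of above 1 CPM in at least 3 libraries. By limma, 0 of the 8 members other than Ces1f were called at an adjusted p of 0.05, where 4 of 13399 genes (0.0299%) were called. At an unadjusted p of 0.05, 0 of these 8 passed, where 635 genes (4.74%) did. No member had all I-KO libraries below all lox/lox libraries, as 440 genes (3.28%) had, or all above, as 390 genes (2.91%) had. In sign, 7 members were lower and 2 higher in I-KO, and their median log2 fold change was -0.12. Over the 8 members without Ces1f the median was -0.082, and exact two-sided permutation tests over the 7 libraries gave p between 0.457 and 0.943, where 0.0286 is the smallest that this design allows.

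The Ces1 members varied together from mouse to mouse. Over the 7 libraries, the correlation of log2(CPM + 1) between Ces1 pairs was between 0.71 and 0.97 (median 0.84 of 6 pairs), and within the groups, after centring each on its mean, between 0.88 and 0.97. The closest pair was Ces1d and Ces1g. Ces2 pairs had correlations between -0.53 and 0.69 (median 0.18 of 10 pairs). Without I-KO 4 and lox/lox 3, the 2 libraries in which Ces1 transcripts were high, Ces1 pairs had correlations between 0.52 and 0.98 over 5 libraries. These are descriptions over libraries that share 1 scaling, and genes of a family are not independent. Against Ppara, Ces1 members had correlations of 0.67 to 0.79 and Ces2 members of 0.27 to 0.80, but of 0.21 to 0.55 and -0.06 to 0.79 without these 2 libraries. In lox/lox 3, 8 of the 9 members had their highest lox/lox value, and in I-KO 4, 6 of the 9 had their highest I-KO value. lox/lox 3 was also the library with the least Slc40a1 and Cybrd1 and I-KO 4 the one with the most Ppara, and the part of either in the carboxylesterase levels was not tested. The sum of the 4 Ces1 members was 236, 317 and 392 CPM in lox/lox 1 to 3 and 214, 193, 233 and 344 CPM in I-KO 1 to 4. Adipocyte genes were read beside this sum. Of the 7 measured genes of the list, 2 (Adipoq and Cfd) had their 3 highest values in lox/lox 2, lox/lox 3 and I-KO 4, and 3 (Fabp4, Cidec and Adipor2) were lowest in I-KO 4. Plin1 and Retn, at most at 0.54 and 0.56 CPM, both had their highest I-KO value in I-KO 4, as had Adipoq and Cfd. The list summed to 813 to 957 CPM in lox/lox and 701 to 796 CPM in I-KO, with I-KO 4 the lowest library. Most of this sum was Adipor2 (580 to 817 CPM), so it does not follow the low genes of the list. The part of adipocyte transcripts in the Ces1 values was not tested.

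**Figure D4:**
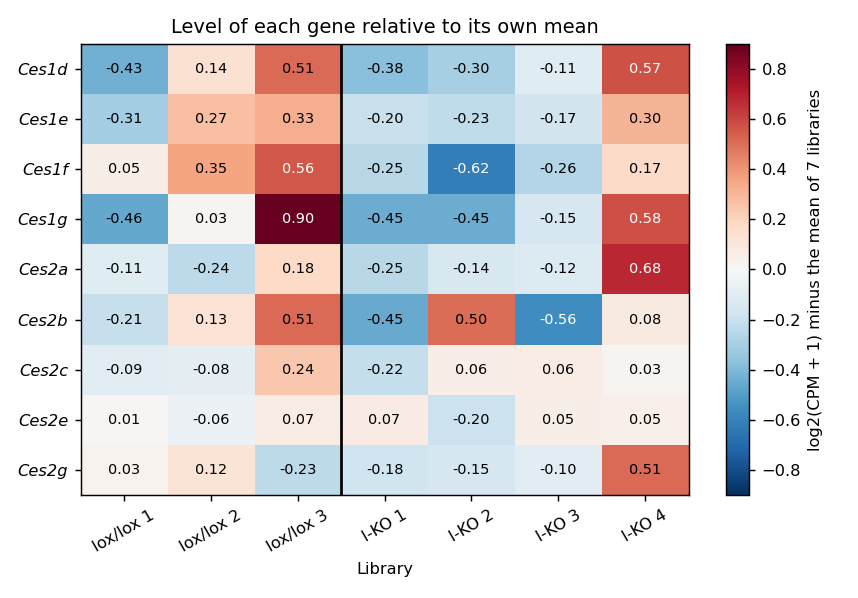
Cells give log2(CPM + 1) of each member minus its own mean over the 7 libraries, with lox/lox to the left and I-KO to the right of the line (red above, blue below the mean). The 4 Ces1 rows are all above their means in lox/lox 3 and I-KO 4 and all below them in I-KO 1, 2 and 3, and Ces2e stays within -0.20 and 0.07.

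Genes outside the family were ranked by how closely they followed Ces1f over the 7 libraries. The 5 nearest were Adtrp, an enzyme that cleaves lipids with a hydroxy fatty acid ester bond, with a correlation of 0.96, Dclre1b with 0.95, Aldh9a1 with 0.95, Fra10ac1 with 0.95 and Klhl11 with 0.95. Adtrp had 66.8, 69.5 and 79.9 CPM in lox/lox 1 to 3 and 54.7, 50.0, 59.9 and 63.5 CPM in I-KO 1 to 4, so that all I-KO libraries were lower. Because they were ranked by likeness to Ces1f, their own genotype differences follow from the choice. The genes nearest to Ces2e were Cyp2d26 (0.98), Ms4a10 (0.96), Tm7sf3 (0.96), Tmem243 (0.95) and Tespa1 (0.94). Cyp2d26, a drug-metabolising cytochrome, had its lowest value in I-KO 2 with 264 CPM, as had Ces2e. Among 13399 genes, correlations of this size over 7 libraries are a rank and no more.

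Relatives of the members in the same arrays were scarce in the duodenum. Of 11 other carboxylesterase symbols looked for, 6 were listed and 4 passed the filter, and Ces1a, Ces1h, Ces3b, Ces4a and Ces5a were not among the listed genes. Ces1c, which encodes the carboxylesterase of mouse plasma, had 0.84, 0.94 and 1.22 CPM in lox/lox 1 to 3 and 1.68, 1.85, 1.54 and 1.61 CPM in I-KO 1 to 4. Every I-KO library was above every lox/lox library, as for 390 of 13399 genes (2.91%). Ces1c passed the filter of 1 CPM only through the I-KO libraries, where it was high, so its test and direction carry no weight beside Ces1f. Its log2 fold change was 0.42 (standard error 0.092), which did not pass over all genes (limma adjusted p = 0.581). Ces1b, below the filter, was also higher in every I-KO library, with 0.12 to 0.21 CPM in lox/lox and 0.29 to 0.53 CPM in I-KO, a handful of reads per library. Ces2d-ps, which shares sequence with Ces2c, had 1.93, 1.59 and 2.04 CPM in lox/lox 1 to 3 and 0.77, 1.57, 1.01 and 1.86 CPM in I-KO 1 to 4. Ces2h had between 1.93 and 3.38 CPM and Ces2f between 0.21 and 0.77 CPM over the 7 libraries. The log2 fold changes of Ces2d-ps and Ces2h were -0.33 and -0.19 (limma adjusted p = 0.954 for both).

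Around the arrays, the nearest tested genes did not pass the test. Lpcat2 and Gnao1 on either side of the Ces1 array had log2 fold changes of 0.084 and -0.040 (limma adjusted p = 0.963 and 0.983), and Rrad and Ces3a on either side of the Ces2 array had 0.048 and -0.0040 (limma adjusted p = 0.976 and 0.999). The metallothionein genes Mt2 and Mt1, which encode metal-binding proteins, start 892.92 and 899.34 kb from the start of Ces1f. They were higher in I-KO by 3.90 and 2.96 on the log2 scale (limma adjusted p = 0.00147 for Mt1 and 0.00146 for Mt2). Within 1000 kb of the start of Ces1f, 15 other genes were tested, of which 8 were lower and 7 higher in I-KO, and the median log2 fold change was -0.024. At an unadjusted p of 0.05 limma passed 6 of these 15, all higher, where 4.74% of all genes passed. These were Mmp2, Ces1c, Bbs2, Mt4, Mt2 and Mt1. Mt4 and Ces1c passed the filter only through the I-KO libraries, where they were high, so their direction was largely set by the filter. Mt4, Mt2 and Mt1 lie close together and are not separate results. The 6 are therefore no measure of an excess in this region. The 3 called among them were Mt1, Mt2 and Mt4, all higher, where 4 of 13399 genes were called.

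**Figure D5:**
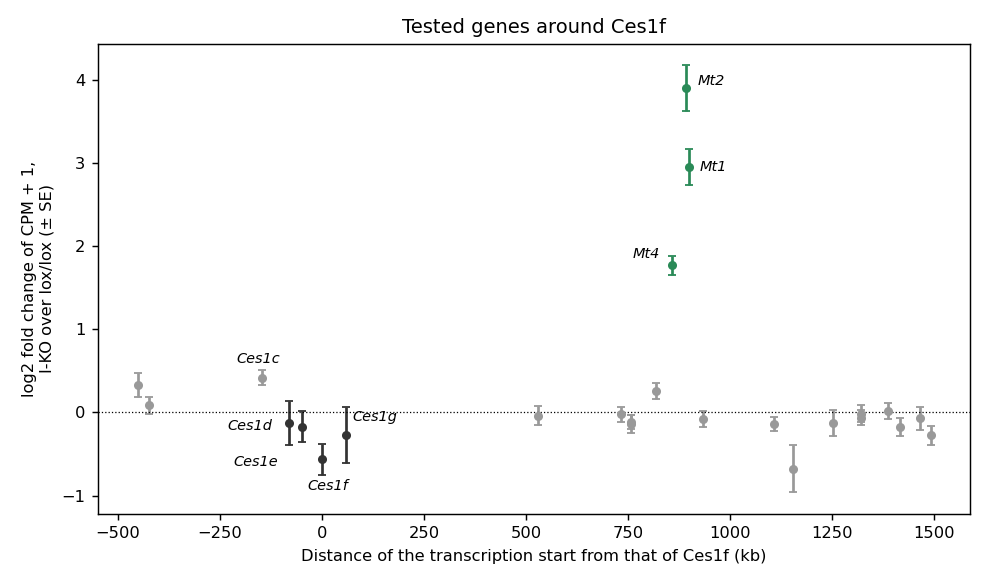
Log2 fold change of CPM + 1 (I-KO over lox/lox, ± SE from limma) is plotted against the distance in kb of each tested gene's start from that of Ces1f, with members in black, metallothionein genes in green and other genes in grey. The Ces1 members lie between -0.56 and -0.12, and Mt2, Mt1 and Mt4, 857 to 899 kb away, lie above 1.7; Mt4 had 0 CPM in the 3 lox/lox libraries, so its plotted value depends on the 1 added to each CPM.

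Promoter sequences from RefSeq (GRCm38.p6) were matched for 6 of the 9 members, Ces1e, Ces1g, Ces2a, Ces2c, Ces2e and Ces2g, and entries were missing for Ces1d, Ces1f and Ces2b. The 250 bases before the start of Ces2a and Ces2e are shown because these genes of 1 array had the highest mean levels per kb, although Ces2a and Ces2c did not differ beyond their spread. Over the 7 libraries Ces2a had a coefficient of variation of 26.6% and Ces2e of 6.44%, and without I-KO 4, in which Ces2a was high, 11.3% and 6.94%. Capitals mark the longest run that both share, 17 bases.
Ces2a, chr8:104733753-104734002, plus strand: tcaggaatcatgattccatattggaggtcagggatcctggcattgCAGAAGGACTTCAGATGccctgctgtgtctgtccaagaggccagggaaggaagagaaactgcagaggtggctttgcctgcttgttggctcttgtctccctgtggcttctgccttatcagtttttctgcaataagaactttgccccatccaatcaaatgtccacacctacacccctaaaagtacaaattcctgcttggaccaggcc
Ces2e, chr8:104926010-104926259, plus strand: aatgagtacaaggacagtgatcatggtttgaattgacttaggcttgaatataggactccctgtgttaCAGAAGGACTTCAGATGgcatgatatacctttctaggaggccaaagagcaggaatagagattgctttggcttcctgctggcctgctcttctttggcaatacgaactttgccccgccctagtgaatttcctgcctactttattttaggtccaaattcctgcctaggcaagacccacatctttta
Among the 4 Ces2 promoters, pairs shared runs of 9 to 17 bases, and pairs of a Ces1 with a Ces2 promoter shared runs of 7 to 11 bases. The half-site of nuclear receptors, AGGTCA on either strand, was found in the window of Ces2a and in none of the other 5, against 14.0% of 32851 promoter windows of this length. The direct repeat AGGTCANAGGTCA, the form to which PPARα binds with its partner, was in 0 of the 6 windows and in 0.0335% of all. TATAAA, read on the gene's strand, was in 0 of the 6 and in 7.59% of all. A match or its absence in this window says nothing on binding.

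Other genes that cleave or store lipid esters were read from lists chosen with earlier results known. Of 25 tested lipid ester hydrolases outside the family, 0 were called by limma, and 2 lower and 1 higher passed an unadjusted p of 0.05. Over all 13399 genes tested, 4.74% passed it, 324 lower and 311 higher. In sign, 11 were lower and 14 higher, with a median log2 fold change of 0.017. At the low end stood Abhd6, which cleaves monoacylglycerols, with 107, 99.0 and 104 CPM in lox/lox 1 to 3 and 63.7, 70.7, 75.2 and 71.5 CPM in I-KO 1 to 4. All I-KO libraries, I-KO 4 included, were below all lox/lox libraries, as for 440 of 13399 genes (3.28%). The difference was -0.55 in log2(CPM + 1) (standard error 0.085, limma adjusted p = 0.134). This is near the value of Ces1f, with a smaller spread between mice. Nceh1, a cholesteryl ester hydrolase, also had no overlap, at 22.8 ± 1.34 CPM (n = 3, SD) and 18.0 ± 1.27 CPM (n = 4, SD). Its log2 fold change was -0.33 (limma adjusted p = 0.791). At the other end Pnpla2, the adipose triglyceride lipase, and Abhd12, a lysophospholipid lipase, had log2 fold changes of 0.21 and 0.17 (limma adjusted p = 0.954 for both). Pnpla2 also had no overlap, in the other direction, with 115 to 124 CPM in lox/lox and 125 to 148 CPM in I-KO, as for 2.91% of genes. Of 16 tested genes of triglyceride storage and secretion, limma called 0, with 7 lower and 9 higher in sign. It passed 1, Plin2, at an unadjusted p of 0.05, where 4.74% of all genes passed. The lipid droplet protein Plin2 was lowest among them at -0.45, then Mttp, which loads lipid onto lipoproteins, at -0.19, while Apoc3 and Dgat2 were at 0.30 and 0.21 (limma adjusted p = 0.954 for all).

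The PPARα target list was read in the same way. Of its 18 tested genes, 15 were lower and 3 higher in I-KO, and the median log2 fold change was -0.51. At an unadjusted p of 0.05 limma passed 11 of them, all lower, where 4.74% of all genes passed, 324 lower and 311 higher. At an adjusted p it called 1, where 4 of 13399 genes were called. This was Me1, malic enzyme, at 37.2 ± 6.66 CPM (n = 3, SD) in lox/lox and 14.7 ± 2.33 CPM (n = 4, SD) in I-KO (log2 fold change -1.28, limma adjusted p = 0.0456). Its groups did not overlap, as for 3.28% of genes in this direction. Its call was lost when lox/lox 1, lox/lox 3, I-KO 1, I-KO 2 or I-KO 3 was left out, with limma adjusted p between 0.132 and 0.243. Cyp4a10, a fatty acid hydroxylase, had 1.78, 2.57 and 4.87 CPM in lox/lox 1 to 3 and 0.29, 0.24, 0.21 and 0.58 CPM in I-KO 1 to 4 (limma adjusted p = 0.116). It passed the filter of 1 CPM only through the lox/lox libraries, where it was high, so its test lends no support. I-KO 4 was here below every lox/lox library, but Cyp4a10 was named for its low fold change, so this is no check of the label. Acsl1 and Ucp2 were at the upper end with 0.16 and 0.082 on the log2 scale (limma adjusted p = 0.954 for both). Of 17 tested nuclear regulators of intestinal and lipid genes, limma called 0. It passed 1, Pparg, at an unadjusted p of 0.05, where 4.74% of all genes passed. Ppara was at -0.25, the bile acid receptor Nr1h4 at -0.18, the intestinal factor Cdx2 at 0.11 and Pparg at 0.36 (limma adjusted p = 0.954 for all). For Pparg, all I-KO libraries were above all lox/lox libraries, as for 2.91% of genes. Among the 8 lists of cell type and regional markers, limma called 0 genes and passed 3 at an unadjusted p of 0.05. These were 1 each of 12 tested enterocyte, 5 adipocyte and 7 macrophage genes, where 4.74% of all genes passed. The enterocyte list summed to 49870.3 to 58219 CPM in lox/lox and 49432 to 63622 CPM in I-KO.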

How the data were processed

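Duodenal RNA of 3 Ppara lox/lox and 4 Ppara I-KO mice was prepared by the authors as stranded mRNA libraries and sequenced as 100 base single reads. The authors' processing notes name FastQC 0.11.2, TopHat2 2.0.13, Picard 1.80, HTSeq 0.6.1, edgeR and the mm10 build. The authors deposited 1 table of signal values, counts per gene scaled to an adjusted library size (CPM) with 2 decimals, whose columns sum to between 969589 and 1098618; 1 last line without a gene was dropped. The value of 1 read in each library was found from the steps of the low values. Replicates differed by more than sampling noise (chi-square over its degrees of freedom, 13.5 or more).

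Log2(CPM + 1) of the 13399 genes above 1 CPM in 3 or more libraries was compared between genotypes, with no other term, by limma 3.58.1 (R 4.3.3), with two-sided p-values adjusted by the Benjamini-Hochberg method over all genes and a threshold of 0.05; the scale understates changes of low genes. Single genes were compared by exact permutation tests in scipy 1.17.1. The members and all lists were chosen with earlier results of these data known. Named were all members, Ppara, list genes past the threshold, the 2 highest and 2 lowest fold changes of each list other than markers, the 5 genes most correlated with Ces1f and with Ces2e, genes within and beside the arrays, and Mt1 and Mt2. Marker genes such as Alpi, Alb, Slc40a1, Cybrd1, Adipoq and Fabp4 were chosen after their values were seen. Coordinates and exon lengths came from GENCODE M21 (GRCm38). Coding sequences were compared by global alignment in Biopython 1.88. Figures were drawn with matplotlib 3.10.9.

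As alternatives, the scaling was replaced by column totals or by median-of-ratios size factors, the filter was dropped, 0.5 was added in place of 1, and an intensity trend, the replicate number as a block, an unadjusted p, leaving out each library and the longest transcript as gene length were tried.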

Additional observations from a re-analysis of the deposited data

Results flagged for a closer look

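In the group of 4 I-KO libraries, 33 genes were searched for a library far from the other 3 by Dixon's test, the gap to the nearest of them over the whole range of the group. Chance flags about 1 in 20 groups, and 8 of the 33 genes passed, 5 of them members, all from the same 4 libraries. I-KO 4 stood high for Ces1e (23.2 CPM against 15.7 to 16.5, gap 0.898 of the range), Ces2a (481 against 253 to 276 CPM, gap 0.899), Ces2g (112 against 68.8 to 73.0 CPM, gap 0.902) and the low gene Ces3a (2.36 against 0.77 to 1.01 CPM, gap 0.849). This is the library whose Ppara lay above every lox/lox library. I-KO 2 stood low for Ces2e (1168 against 1381 to 1409 CPM, gap 0.884) and for Mttp (2370.0 against 2911 to 2972 CPM, gap 0.898). I-KO 1 stood low for Ces2c (231 against 273 to 281 CPM, gap 0.851) and high for Plin2 (106 against 68.6 to 73.7 CPM, gap 0.862), and it was the library with the most pancreatic acinar transcripts, whose part in these values was not tested.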

How the results depend on the processing

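Over the members, 106 of 117 fold changes under an alternative kept their direction and 11 reversed, and Ces1e, Ces1f and Ces2b kept theirs under all 13. With 1 library left out at a time, the log2 fold changes ranged from -0.38 to 0.096 for Ces1d, -0.37 (without lox/lox 1) to -0.055 (without lox/lox 3) for Ces1e, -0.46 (without I-KO 2) to -0.071 (without lox/lox 3) for Ces2b, -0.58 to 0.10 for Ces1g, -0.11 to 0.22 for Ces2a, -0.099 to 0.070 for Ces2c, -0.046 to 0.049 for Ces2e and -0.12 to 0.12 for Ces2g. With the replicate block, Ces2a and Ces2g reversed to -0.11 and -0.12; the block leaves I-KO 4 without a partner, which drops it from the comparison. The deviations of libraries with the same number had correlations of -0.014, 0.18 and -0.0092, against -0.355 to 0.283 for different numbers. So few values cannot tell whether the number pairs the mice. The block called 3 genes in place of 4. The 1 called list gene, Me1, was lost with column totals, with a pseudocount of 0.5 and with the replicate block (0 called each, limma adjusted p of Me1 0.0762, 0.0722 and 0.184), and with a library left out 0 to 1 were called; the cause was not tested. An unadjusted p of 0.05 called 635 genes in place of 4, and 0 of the 8 members other than Ces1f. Per kb of the longest transcript, Ces1f had 70.8, Ces2c 137 and Ces2g 27.8 CPM. Without I-KO 4, an alternative chosen after seeing the data, the coefficient of variation of Ces2a fell from 26.6% to 11.3%. The planned tests on counts were not run, because in 5 of the 7 libraries under 95% of low values were within 0.1 step of a whole read. With 3 against 4 mice, the 95% interval of Ces1g spans -1.03 to 0.49 and that of Ces2e -0.22 to 0.19 on the log2 scale.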
